A study of Rattus norvegicus with 10 samples.

Results

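Prostaglandins and leukotrienes are signalling lipids that cells make from arachidonic acid, and 9 genes of their synthesis, sensing and removal were followed here on 10 expression arrays of cells from the nucleus pulposus, the soft core of the rat intervertebral disc. The genes, Pla2g2a, Pla2g4a, Ptgs1, Ptgs2, Ptges, Ptgis, Ptger4, Alox5ap and Hpgd, were taken by symbol from the platform annotation, in which 15037 genes have a probeset, and each of the 9 had exactly 1. They were picked with the difference between the groups already known, so that difference is described for them and not tested. The other genes of the pathway are listed by role and tested, although their lists too were drawn up with earlier results known.

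Cells came from male Sprague Dawley rats of about 300 g, given as 3 to 4 months old. The control group, ShCtrl, was 5 arrays of cells transduced with a lentivirus carrying a control hairpin in pLKO.1, and the knockdown group, ShBNIP3, was 5 arrays of cells transduced with a lentiviral hairpin against Bnip3, a receptor on mitochondria that marks them for removal by autophagy. Both groups were lentivirally transduced, and RNA was taken 4 days later. No label says how many hairpin sequences were used, and none ties an array to a culture or an animal, so the errors and p-values below cover spread among these 10 samples alone and that spread may be technical. The extraction text of the labels also speaks of mouse disc tissue, although the samples are labelled rat cells. Arrays carry the numbers of their titles, 1 to 5 for ShCtrl and 6 to 10 for ShBNIP3.

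In this pathway a phospholipase A2 frees arachidonic acid from membrane lipids. Cyclooxygenases, encoded by Ptgs1 and Ptgs2, turn it into prostaglandin H2, from which terminal synthases make the separate prostanoids: Ptges makes prostaglandin E2 and Ptgis makes prostacyclin. Prostaglandin E2 acts on a family of G protein-coupled receptors, of which EP4 is encoded by Ptger4, and is inactivated by the dehydrogenase encoded by Hpgd. A separate route through 5-lipoxygenase and its activating protein, encoded by Alox5ap, leads to leukotrienes. In the disc, prostaglandin E2 and phospholipase A2 activity are known as part of the inflammatory state that accompanies degeneration and pain.

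The labels were checked first against the targeted gene, and the groups did not overlap. Bnip3 read 13.94 to 15.97 (log2 expression value) on the ShCtrl arrays and 10.59 to 12.68 on the ShBNIP3 arrays, a log2 difference of -3.21 (SE 0.40, limma adjusted p = 0.00020). Array 4 of ShCtrl and array 10 of ShBNIP3 stood apart from the rest of their groups: their mean Pearson correlation with the other arrays of the group was 0.983 and 0.986, against 0.992 for the 8 others. Bnip3 was highest in its group on these arrays too, 1.71 and 1.61 above the rest, and without them its log2 difference was -3.19 (SE 0.18). On array 4, 5.95% of the 23188 probesets tested lay at least 1 log2 unit from the mean of the other ShCtrl arrays, and on array 10, 4.34% did so from the other ShBNIP3 arrays. The differences of the genes above background among the 9 are therefore given with and without these arrays. Of the other pathway genes named by rule, 16 passed the limma threshold of an adjusted p of 0.05, and all 16 were past it in the same direction without these arrays. In all, 24 other pathway genes passed, and of those not named by rule Mgll lost its call without these arrays (limma adjusted p = 0.031 and 0.059). A probeset is called at background where it lay under the 95th percentile of the antigenomic control probesets of the array, which was 6.50 to 6.78. Of the markers of nucleus pulposus, Acan, Col2a1 and Car3 were above background on all arrays, while the notochordal markers Tbxt, Krt8, Krt18, Krt19, Shh and Noto were at background on all of them. Cd24 was above background on 7 of the 10 arrays, Car12 on 2 ShCtrl arrays and 0 ShBNIP3 arrays, and Cdh2 on the 5 ShBNIP3 arrays alone. In limma, 1 of these 12 markers rose (Cdh2) and 2 fell, Col2a1 by 1.59-fold and Car3 by 2.45-fold (limma adjusted p = 0.013 and 0.0048), and 4 fell without arrays 4 and 10. Of 11 measured markers of annulus fibrosus and fibroblasts, 10 were above background on every array of at least 1 group.

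Upstream sequences of the genes whose values carry the pattern are shown first. The table of upstream sequences from RefSeq (assembly GRCr8) was matched for 7 of the 9 genes. The 250 bases before the annotated start are given 5′ to 3′ on the gene's strand for Pla2g2a, which differed most between the groups, for the cyclooxygenase pair Ptgs1 and Ptgs2, which behaved differently, and for Ptges, which followed arrays 4 and 10. Capitals mark matches to any of the 7 motifs searched on both strands.
Pla2g2a, chr5:156359475-156359724, plus strand: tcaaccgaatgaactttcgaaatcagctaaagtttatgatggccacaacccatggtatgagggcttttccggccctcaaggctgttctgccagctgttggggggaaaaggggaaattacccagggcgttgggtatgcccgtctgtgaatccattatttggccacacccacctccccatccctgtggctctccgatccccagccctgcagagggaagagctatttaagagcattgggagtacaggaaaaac
Ptgs1, chr3:39981169-39981418, plus strand: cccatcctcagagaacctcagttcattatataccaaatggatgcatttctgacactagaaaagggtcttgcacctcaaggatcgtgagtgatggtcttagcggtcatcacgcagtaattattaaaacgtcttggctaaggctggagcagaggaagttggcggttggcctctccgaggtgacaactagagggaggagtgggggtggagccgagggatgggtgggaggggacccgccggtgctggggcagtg
Ptgs2, chr13:64713813-64714062, plus strand: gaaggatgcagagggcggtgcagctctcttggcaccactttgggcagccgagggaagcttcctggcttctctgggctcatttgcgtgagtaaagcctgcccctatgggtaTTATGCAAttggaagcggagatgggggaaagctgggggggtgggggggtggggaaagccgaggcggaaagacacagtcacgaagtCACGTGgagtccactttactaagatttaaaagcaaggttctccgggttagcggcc
Ptges, chr3:34586988-34587237, minus strand: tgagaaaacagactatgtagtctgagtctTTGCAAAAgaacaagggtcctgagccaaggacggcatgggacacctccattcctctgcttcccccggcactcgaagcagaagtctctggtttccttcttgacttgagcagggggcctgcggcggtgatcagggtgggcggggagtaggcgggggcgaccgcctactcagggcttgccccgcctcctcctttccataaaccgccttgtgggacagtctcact

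Among these 7 genes, the C/EBP motif TTGCNNAA was matched in Ptgs2, at bases 140 to 133 before the start, and in Ptges, at bases 221 to 214, and it is found in 9.22% of the 33469 rat upstream windows of this length. The E-box CACGTG was matched in Ptgs2 at bases 55 to 50 (5.59% of all windows). These letters hold ACGTG, the core of the hypoxia response element (16.6% of all windows), on each strand. Those matches are therefore the same site and not a further one. The TATA box letters, TATAAA, were matched in Pla2g4a on the strand opposite the gene alone, at bases 108 to 103 before the start. The gene's own strand reads TTTATA there (12.9% of all windows have a match on either strand). The kappaB consensus bound by NF-kB (3.54%), the CRE core TGACGT (6.95%) and the AP-1 motif TGANTCA (6.34%) had 0 matches in the 7 windows, which says no more than that these letters are not in them. Ptgs2 and Pla2g4a lie next to each other in that assembly, with a long non-coding RNA gene and a pseudogene but 0 protein-coding genes between them.

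The phospholipases and Ptgs2 were higher with the Bnip3 hairpin, and the values of Ptgs1 overlapped between the groups. The synthase, receptor and dehydrogenase of prostaglandin E2 deviated further on arrays 4 and 10 than the groups differed. Of the 9 genes, 3 (Pla2g2a, Pla2g4a and Ptgs2) were past the limma threshold of an adjusted p of 0.05 and all 3 were higher in ShBNIP3. Of all probesets, 15.5% were past it, 7.61% higher and 7.87% lower. All 3 differed at least 2-fold, and 4.18% of all probesets were past the threshold and at least 2-fold apart. The groups did not overlap for 2 of the 9, Pla2g2a and Pla2g4a, both higher in ShBNIP3, against 12.9% of all probesets (6.6% higher and 6.29% lower). Without arrays 4 and 10, 4 of the 9 were past the threshold and higher (9.84% of all probesets) and 1, Hpgd, was past it and lower (10.1%; 19.9% in both directions). The remaining arrays of the groups did not overlap for 5 of the 9 (23.6% of all probesets). Since the 9 were picked on this difference, nothing is read from these shares. Of the 9, 5 were above background on all 10 arrays and 2 were at background on all 10.

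**Figure D1:**
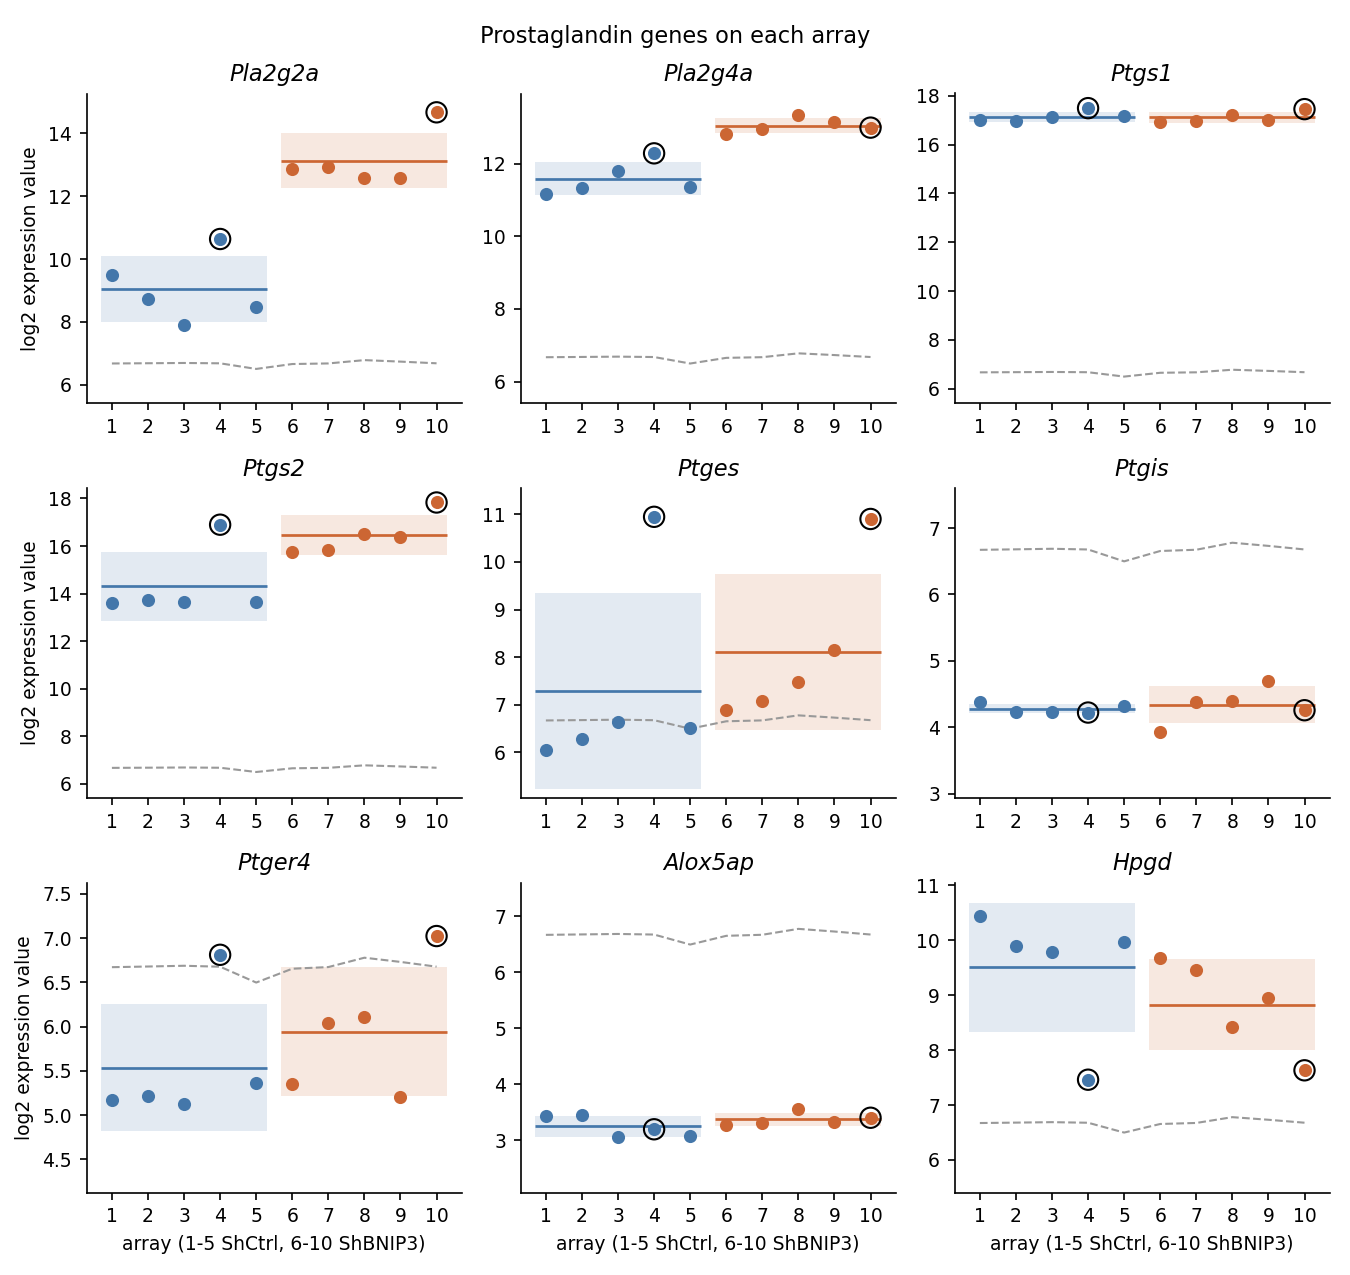
Log2 expression value (vertical axis) of each of the 9 genes on arrays 1 to 5 (ShCtrl, blue) and 6 to 10 (ShBNIP3, orange). Lines are group means, bands are ± 1 SD, the dashed line is the background level of each array and rings mark arrays 4 and 10. Pla2g2a and Pla2g4a separate the groups, Ptgs2, Ptges and Ptger4 are high and Hpgd is low on array 4, and Ptgis and Alox5ap lie under the background line.

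Pla2g2a encodes a secreted phospholipase A2 of the acute-phase type, found in inflamed joints and discs. Its log2 values were 9.49, 8.73, 7.90, 10.64 and 8.49 on ShCtrl arrays 1 to 5 and 12.87, 12.92, 12.59, 12.59 and 14.67 on ShBNIP3 arrays 6 to 10. All ShBNIP3 arrays lay above all ShCtrl arrays, and the highest array of each group was the one that stands apart. The ShCtrl mean was 9.05 ± 1.06 and the ShBNIP3 mean 13.13 ± 0.88 (SD, n = 5 each). They differed by 4.08 on the log2 scale (SE 0.50), or 16.9-fold. Array 4 lay 1.99 above the mean of the other ShCtrl arrays and array 10 lay 1.93 above that of the other ShBNIP3 arrays. The difference was 4.09 (SE 0.27) without them and 4.04 between array 10 and array 4 themselves.

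Pla2g4a encodes the cytosolic phospholipase A2 that prefers arachidonic acid and is switched on by calcium and by MAP kinases. It read 11.15, 11.33, 11.79, 12.29 and 11.36 in ShCtrl and 12.83, 12.95, 13.34, 13.16 and 13.00 in ShBNIP3. Here too the groups did not overlap, with array 4 the highest ShCtrl array and array 10 in the middle of the ShBNIP3 arrays. The log2 difference was 1.47 (SE 0.20, 2.77-fold) and 1.66 (SE 0.16) without both arrays, and 0.71 between array 10 and array 4.

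Ptgs1 encodes cyclooxygenase-1, the form made at a steady level in most tissues. Its values spanned 16.99 to 17.50 in ShCtrl and 16.92 to 17.46 in ShBNIP3, and the groups overlapped almost fully. The log2 difference was -0.04 (SE 0.14), also -0.04 (SE 0.12) without arrays 4 and 10, and its sign turned with 1 array left out (-0.12 to 0.048). The SDs of the groups were 0.21 and 0.22. Arrays 4 and 10 were the highest of their groups, 0.43 and 0.42 above the rest.

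Ptgs2 encodes cyclooxygenase-2, the inducible form. It read 13.58, 13.75, 13.65, 16.90 and 13.66 on ShCtrl arrays 1 to 5 and 15.73, 15.85, 16.50, 16.39 and 17.83 on ShBNIP3 arrays 6 to 10. Array 4 alone lay 3.24 above the mean of the other ShCtrl arrays, whose SD was 0.07, and above 4 of the 5 ShBNIP3 arrays. The groups overlapped through that array and no other. Over all arrays the ShCtrl mean was 14.31 ± 1.45 and the ShBNIP3 mean 16.46 ± 0.83 (SD, n = 5 each). They differed by 2.15 on the log2 scale (SE 0.60, 4.45-fold). Without arrays 4 and 10 it was 2.46 (SE 0.17, 5.50-fold) and the groups did not overlap. Between array 10 and array 4 it was 0.93, or 1.91-fold.

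Ptges encodes microsomal prostaglandin E synthase-1, the terminal synthase that is induced together with cyclooxygenase-2 in inflamed tissue. In ShCtrl it read 6.04, 6.29, 6.64, 10.95 and 6.52, above background on 2 of 5 arrays, and in ShBNIP3 it read 6.90, 7.08, 7.47, 8.15 and 10.90, above background on all 5. On array 4 it lay 4.57 above the mean of the other ShCtrl arrays and on array 10 3.50 above that of the other ShBNIP3 arrays. The log2 difference between the groups was 0.81 with an SE of 0.94, larger than the difference itself. Without these arrays the remaining values did not overlap, and the difference was 1.03 (SE 0.24), a value that understates a change because the ShCtrl arrays were near background. Array 10 and array 4 differed by -0.05.

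**Figure D2:**
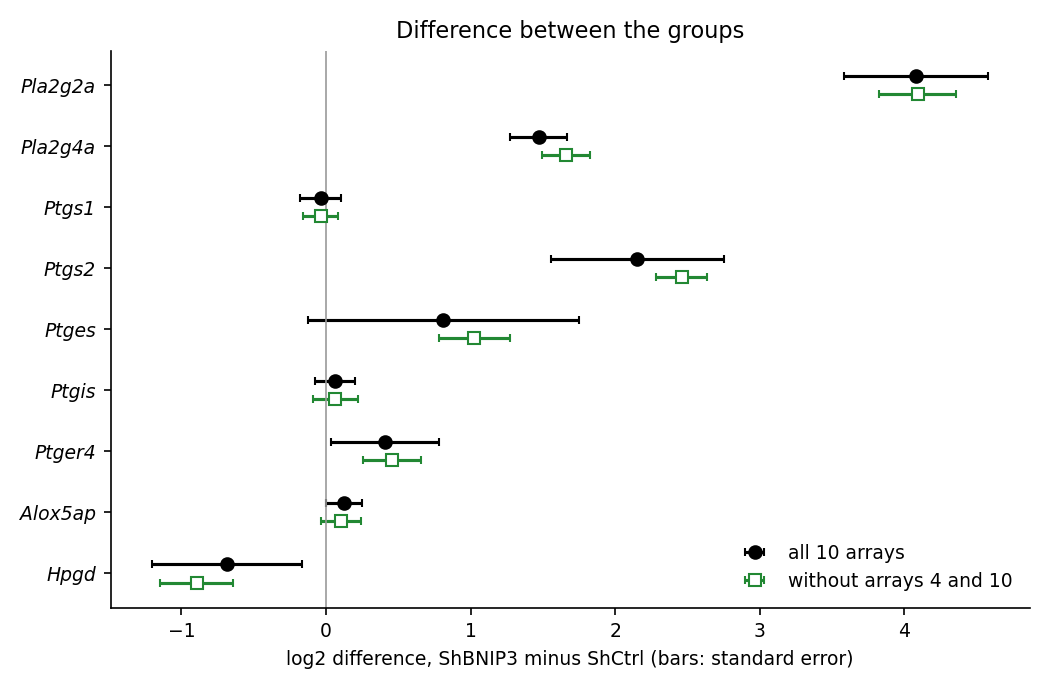
Log2 difference, ShBNIP3 minus ShCtrl (horizontal axis), of each of the 9 genes over all 10 arrays (filled circles) and without arrays 4 and 10 (open squares); bars are the standard error of the limma fit over all probesets. The value of Pla2g2a is 4.08 and 4.09, and the bar of Ptges shrinks from 0.94 to 0.24.

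Ptgis, the prostacyclin synthase, was at background on all 10 arrays, with values of 4.22 to 4.37 in ShCtrl and 3.93 to 4.70 in ShBNIP3. No fold is given for it. Ptger4, the EP4 receptor, read 5.17, 5.21, 5.12, 6.81 and 5.36 in ShCtrl and 5.35, 6.04, 6.11, 5.20 and 7.02 in ShBNIP3. It was above background on array 4 and on array 10 and on no other array, lying 1.60 and 1.35 above the rest of the group there. The groups overlapped with or without these arrays, and the log2 difference was 0.41 (SE 0.37), or 0.46 (SE 0.20) without them.

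Alox5ap, which presents arachidonic acid to 5-lipoxygenase and is made mainly by myeloid cells, was at background on all 10 arrays (3.06 to 3.46 in ShCtrl and 3.26 to 3.56 in ShBNIP3). Alox5, the 5-lipoxygenase, was at background on all of them as well, and so were the mast cell markers (8 of 8 measured) and 15 of 18 macrophage and leukocyte markers, among them Ptprc, Csf1r, Adgre1 and Itgam.

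Hpgd, the dehydrogenase that starts the breakdown of prostaglandin E2, went the other way. It read 10.45, 9.89, 9.79, 7.46 and 9.97 in ShCtrl and 9.68, 9.47, 8.42, 8.94 and 7.63 in ShBNIP3. Array 4 was the lowest of all 10 arrays, with a log2 difference of -2.56 from the mean of the other ShCtrl arrays, and array 10 differed by -1.50 from the other ShBNIP3 arrays. The groups overlapped through array 4 and the log2 difference was -0.68 (SE 0.52). Without both arrays they did not overlap, and it was -0.90 (SE 0.25, 1.86-fold lower).

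**Figure D3:**
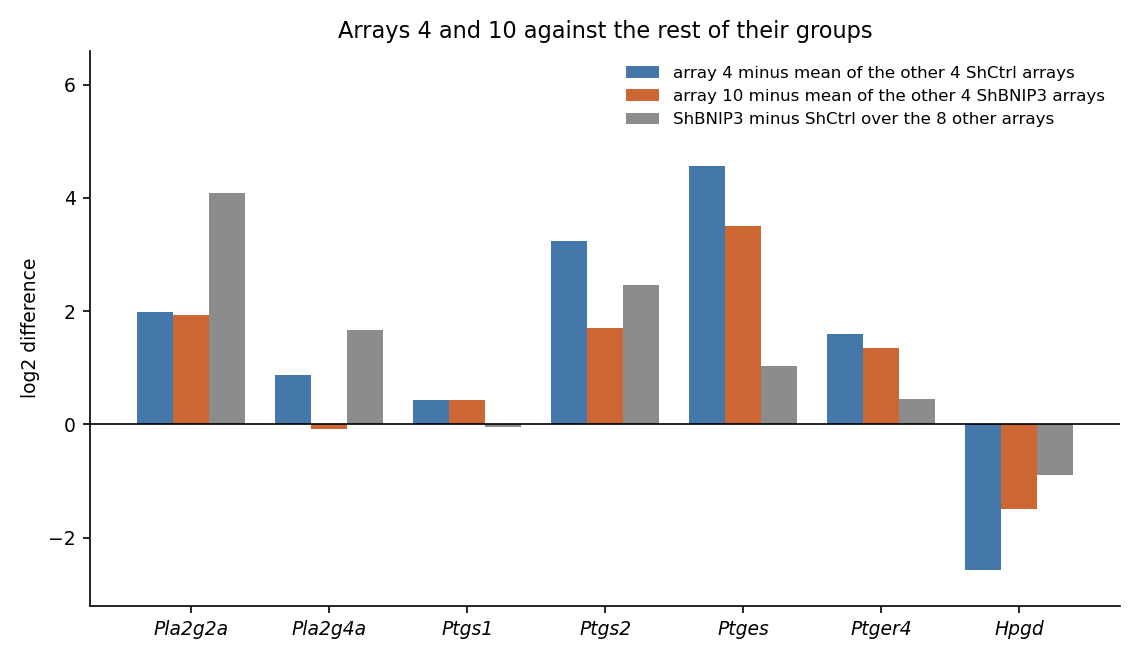
Log2 difference (vertical axis) of array 4 from the mean of the other 4 ShCtrl arrays (blue), of array 10 from the mean of the other 4 ShBNIP3 arrays (orange), and between the groups over the 8 remaining arrays (grey), for the 7 genes above background on at least 1 array. For Ptges, Ptger4, Hpgd and Ptgs1 the blue and orange bars are longer than the grey one, and for Pla2g2a the grey bar (4.09) is the longest. Bars of arrays 4 and 10 rest on 1 array each.

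With each group's mean subtracted, what is left of these genes shows how they vary inside a group. Arrays 4 and 10 carried 50.3% of this within-group sum of squares for Pla2g4a, 65.1% for Pla2g2a and 76.7% for both Ptgs2 and Ptges. Over the 10 arrays, Ptgs2 had a Pearson correlation of 0.98 with Ptges and -0.97 with Hpgd, and over the 8 arrays other than 4 and 10 these were 0.73 and -0.90. The sign of each therefore did not rest on the arrays that stand apart. Without arrays 4 and 10, however, the SD of Ptgs2 was 0.07 in ShCtrl and 0.39 in ShBNIP3. Both values over 8 arrays therefore rest mainly on the ShBNIP3 arrays other than array 10, and say little about ShCtrl. The correlation of Pla2g2a with Ptgs2 was 0.82 over 10 arrays and -0.31 over 8. Over those 8, Pla2g2a varied mainly in ShCtrl (SD 0.66 against 0.18 in ShBNIP3) and Ptgs2 mainly in ShBNIP3. The value over 8 arrays could therefore not be high, and it does not show whether these genes vary together. In all, 15 pairs of the 6 genes above background on every array of a group were computed. These are descriptions over few arrays that were normalized together, with no test.

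Of 7490 named probesets above background on every array of a group, those most like Ptgs2 inside the groups were Slc25a37 (r = 0.997 over 10 arrays and 0.95 over 8), Vegfa (0.99 and 0.88) and Vwa1 (0.99 and 0.66). Those most like Ptges were Adm (0.99 and 0.79), Sdc4 (0.99 and 0.64) and Inhba (0.99 and 0.60). For Hpgd they were Mlec, Slc25a39 and Ror1 (0.98 over 10 arrays and 0.92, 0.86 and 0.92 over 8). Pla2g2a was most like Ptprk, Hycc2 and Opa1, with 0.98 over 10 arrays for each and 0.92, 0.93 and 0.91 over 8. Pla2g4a was most like Tex10 (0.97 and 0.94), Naf1 (0.93 and 0.81) and Spidr (0.92 and 0.85), and Ptgs1 was most like Dnajb4 (0.99 and 0.95), Ralgdsl1 and Grem1 (both 0.98 over 10 arrays, and 0.95 and 0.89 over 8). None of these lists held another of the 9 genes.

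The rest of the pathway was tested through 8 lists of 142 genes, of which 125 were measured and 65 were above background on every array of at least 1 group. Of the 125, 13 rose and 11 fell with the Bnip3 hairpin at a limma adjusted p under 0.05, or 19.2%, near the 15.5% of all probesets. The median log2 difference of the 125 was 0.02, as it was over all probesets. With arrays 4 and 10 left out, 19 rose and 17 fell, or 28.8%, against 19.9% of all probesets in the same fit.

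**Figure D4:**
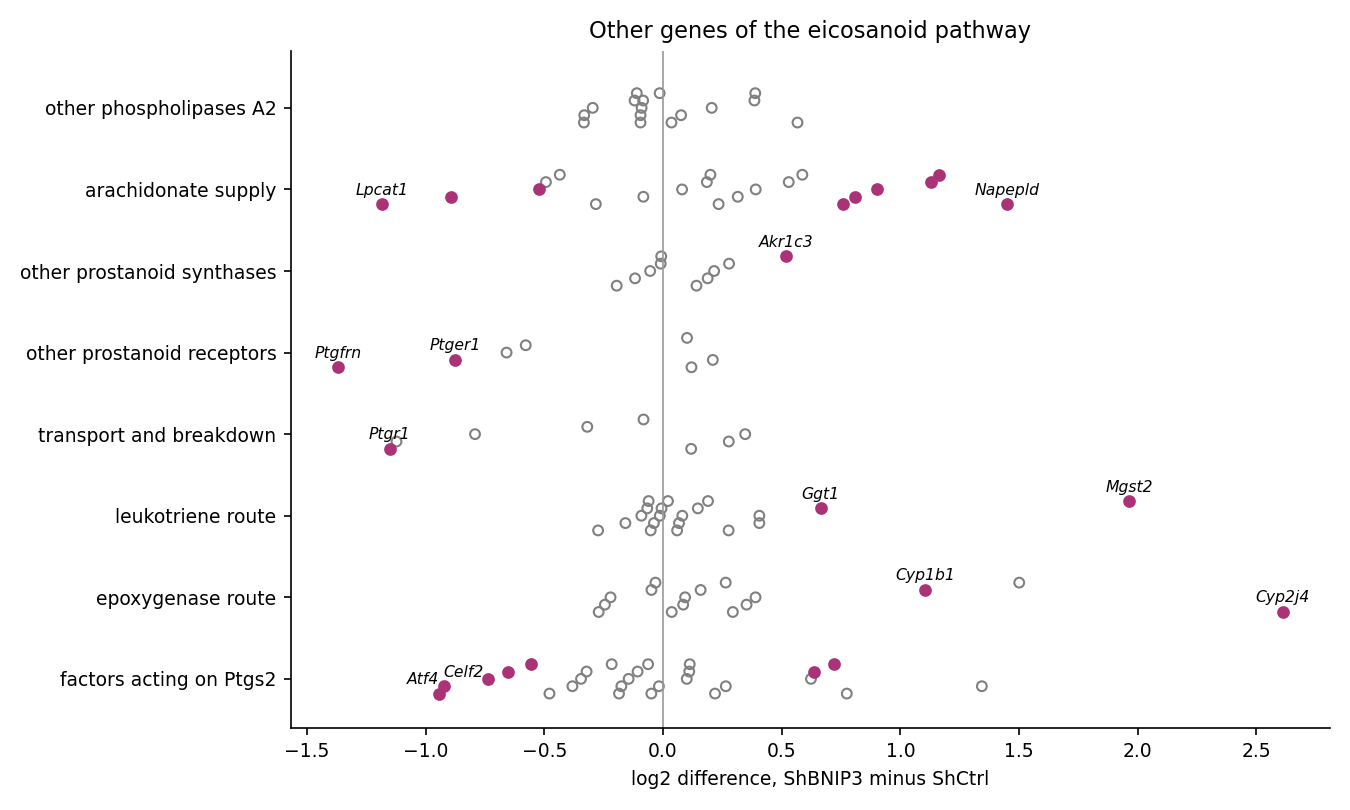
Log2 difference, ShBNIP3 minus ShCtrl (horizontal axis), of the 125 other measured genes of the pathway, 1 point a gene, in 8 lists (vertical axis; points are spread within a list for legibility). Filled points have a limma adjusted p under 0.05, and the furthest of these are named. The calls are spread over both directions, 13 above 0 and 11 below.

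No other phospholipase A2 passed the test over all 10 arrays. Of 16 measured genes of that list 0 rose and 0 fell (median log2 difference -0.09). The list also holds Plaa, Pla2r1 and Anxa1, which do not encode phospholipases A2. Plaa was the 1 gene at an unadjusted p under 0.05 in limma. However, 7 of the 16 were at background on all arrays, and 7 were above it on every array of a group. Without arrays 4 and 10, 1 rose, Pla2g7, singled out after its values were seen. Its log2 difference was 0.57 (SE 0.37, limma adjusted p = 0.38) over all arrays. Without arrays 4 and 10 it was 0.53 (SE 0.13, limma adjusted p = 0.012). The calcium-independent phospholipase Pla2g6 had a log2 difference of -0.33 (SE 0.15, limma adjusted p = 0.19). The secreted forms Pla2g5 and Pla2g10, relatives of Pla2g2a, differed by -0.11 (SE 0.29) and 0.08 (SE 0.12), Pla2g10 at background on all arrays and Pla2g5 above it on 1. Anxa1, which encodes a glucocorticoid-induced protein that restrains phospholipase A2, read 16.91 ± 0.37 and 16.79 ± 0.20 in the control and knockdown groups (SD, 5 arrays each) and did not pass (limma adjusted p = 0.75).

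Genes listed under the supply of arachidonic acid and the return of fatty acids to membranes changed in part. Of 21, 6 rose and 3 fell, with a median log2 difference of 0.23 against 0.02 over all probesets. Acsl4, the acyl-CoA synthetase that prefers arachidonic acid, rose 2.24-fold with no overlap between the groups (a log2 difference of 1.16 with SE 0.15, limma adjusted p = 0.00021). The rise was not particular to it: Acsl3 and Acsl5 rose 1.87-fold and 1.69-fold, also with no overlap (limma adjusted p = 0.00035 and 0.0033). Acsl1 and Acsl6 did not pass. Napepld, which makes the precursors of anandamide and related lipids, rose 2.73-fold (SE of the log2 difference 0.29, limma adjusted p = 0.0041), and Abhd6, a hydrolase of the endocannabinoid 2-arachidonoylglycerol, rose 2.19-fold (limma adjusted p = 0.00030). The lysophosphatidylcholine acyltransferase Lpcat1 fell 2.27-fold (SE of the log2 difference 0.16, limma adjusted p = 0.00035). Which fatty acid it handles in these cells was not measured. The other acyltransferases measured in the list, Lpcat2, Lpcat3, Lpcat4, Mboat1 and Mboat7, did not pass over all 10 arrays. Without arrays 4 and 10, Mboat1 was called lower and Mboat7 higher (limma adjusted p = 0.023 and 0.028). The desaturase Fads1, which makes arachidonic acid from its precursor, differed by 0.53 (SE 0.31, limma adjusted p = 0.32). With arrays 4 and 10 left out, 7 rose and 3 fell, Mboat1 now among the 3 that fell and Mgll no longer (limma adjusted p = 0.059).

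Of 10 other prostanoid synthases 1 rose and 0 fell, and 6 were at background on all arrays, among them the prostaglandin D2 synthase Ptgds and the thromboxane synthase Tbxas1. The member that rose, Akr1c3, was itself at background on all arrays, so no fold is given (limma adjusted p = 0.048, but over 0.05 in 8 of the 10 fits with 1 array left out, all except those without array 3 or array 10, and at most 0.12, and 0.0031 without arrays 4 and 10 together). The other prostaglandin E2 synthases did not pass: the log2 difference was 0.22 for Ptges2 (SE 0.18, limma adjusted p = 0.53) and -0.12 for Ptges3 (SE 0.12, limma adjusted p = 0.59).

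In the list of other prostanoid receptors, which also holds the receptor partner Ptgfrn, 0 of 7 genes rose and 2 fell. Ptgfrn, which encodes a membrane partner of the prostaglandin F receptor, fell 2.58-fold, from 14.60 ± 0.19 to 13.23 ± 0.33 (SD, n = 5 each), with no overlap (limma adjusted p = 0.00015). Ptger1, the EP1 receptor, fell within the background range (limma adjusted p = 0.0029). The prostaglandin F receptor Ptgfr read 12.10 to 13.08 in ShCtrl and 11.38 to 13.53 in ShBNIP3, where array 10 was the highest, and it differed by -0.58 (SE 0.37, limma adjusted p = 0.36). Without arrays 4 and 10 the log2 difference was -0.84 (limma adjusted p = 0.0051), and leaving out array 10 alone brought it past the threshold. Ptger2, the EP2 receptor, which like EP4 raises cyclic AMP, was above background on 1 of 10 arrays and had a log2 difference of -0.66 (SE 0.22, limma adjusted p = 0.059). It passed without those arrays (-0.86, limma adjusted p = 0.014) and without array 1, 4 or 10 alone. Ptger3 and the prostacyclin receptor Ptgir were at background on all arrays.

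Genes of prostaglandin transport and breakdown had 0 of 8 up and 1 down. Ptgr1, a reductase that acts on prostaglandins after Hpgd and also inactivates leukotriene B4, fell 2.22-fold (SE of the log2 difference 0.36, limma adjusted p = 0.046). The adjusted p was over 0.05 in 9 of the 10 fits with 1 array left out, all except that without array 4, and at most 0.11. It was 0.00055 in limma without arrays 4 and 10 together. The exporter Abcc4 read 11.30, 11.37, 10.49, 8.40 and 10.59 in ShCtrl and 9.28 to 9.88 in ShBNIP3. Its lowest value was on array 4, and the log2 difference was -0.79 (SE 0.45, limma adjusted p = 0.29), or -1.21 without arrays 4 and 10 (limma adjusted p = 0.0013), and it passed without array 4 alone. The uptake carrier Slco2a1 was above background on array 4 alone, where it read 8.65, with a log2 difference of -1.12 (SE 0.51, limma adjusted p = 0.18), or -0.77 without arrays 4 and 10 (limma adjusted p = 0.0038). The latter call of Slco2a1 lies within the background range, since its values on all arrays but array 4 were under background. Without arrays 4 and 10, 4 genes of this list fell, Slco2a1 among them.

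On the leukotriene route 2 of 20 rose and 0 fell, and 14 were at background on all arrays. Mgst2, a microsomal glutathione transferase that can also form leukotriene C4, read 14.85 to 15.62 in ShCtrl and 16.83 to 17.55 in ShBNIP3. It rose 3.90-fold (SE of the log2 difference 0.18, limma adjusted p = 1.9e-05), and unlike Ptgs2 it was lowest in its group on both array 4 and array 10. Ggt1 rose within the background range (limma adjusted p = 0.010). Lta4h, which makes leukotriene B4, differed by 0.41 (SE 0.18, limma adjusted p = 0.17, or 0.032 without arrays 4 and 10, and past the threshold without array 10 alone), and Ltc4s, the leukotriene C4 synthase, by -0.16 (SE 0.19, limma adjusted p = 0.68).

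The epoxygenase route had 2 of 16 up and 0 down, and 12 were at background on all arrays. Cyp2j4, a cytochrome P450 of the arachidonic acid epoxygenase family, read 6.95, 6.67, 7.20, 4.77 and 6.77 in ShCtrl, above background on 3 of 5 arrays, and 9.05, 9.11, 10.59, 10.61 and 6.05 in ShBNIP3. Arrays 4 and 10 were the lowest of their groups. It rose 6.11-fold (SE of the log2 difference 0.75, limma adjusted p = 0.033). The adjusted p was over 0.05 in 8 of the 10 fits with 1 array left out, all except those without array 3 or array 10, and at most 0.087. Without arrays 4 and 10 together it was 8.5e-05 in limma. Cyp1b1 rose 2.15-fold, with a limma adjusted p of 0.035 that was over 0.05 in 8 of the 10 such fits, all except those without array 4 or array 6, and at most 0.088, and that was 0.00017 without arrays 4 and 10 together.

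Of 27 measured factors that act on the Ptgs2 promoter or transcript, 2 rose and 5 fell, with a median log2 difference of -0.11. Nfkb2 rose 1.65-fold (SE of the log2 difference 0.20, limma adjusted p = 0.024). The adjusted p was over 0.05 in the 5 fits without array 1, 2, 3, 5 or 9, and at most 0.065. The NF-kB subunits Nfkb1 and Rela had log2 differences of 0.62 (SE 0.24, limma adjusted p = 0.11) and 0.11 (SE 0.14, limma adjusted p = 0.70), and Nfkb1 passed without array 6 alone. Atf4 fell 1.92-fold (limma adjusted p = 0.0010), Nfatc1 fell 1.67-fold (limma adjusted p = 0.012), and Celf2, an RNA-binding protein that holds back Ptgs2 translation, fell 1.90-fold (limma adjusted p = 0.0060) with 1 of 5 ShBNIP3 arrays above background. Tia1, which also encodes a protein that holds back Ptgs2 translation, went the other way and rose 1.55-fold with no overlap (limma adjusted p = 0.015); it was singled out after its values were seen. Cebpd, a C/EBP factor, was 2.43 higher on array 4 and 1.73 higher on array 10 than on the rest of their groups and differed by 0.77 (SE 0.52, limma adjusted p = 0.39) between the groups, or 0.91 without these arrays (limma adjusted p = 0.017), and it passed without array 4 alone. Its relative Cebpb was above background on 3 of the 10 arrays, with a log2 difference of -0.48 (SE 0.44, limma adjusted p = 0.57).

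Markers of other cell types are given beside these results. Of 18 macrophage and leukocyte markers 3 rose (Cd14, Cd68 and Cd53, the last within the background range) and 0 fell. The median log2 difference of the 18 was 0.07. Their summed level on the linear scale was 2379 to 3750 in ShCtrl and 4287 to 10048 in ShBNIP3, highest on array 10. That sum is carried mainly by Cd14, whose log2 values were 10.83 to 11.57 in ShCtrl and 11.73 to 13.14 in ShBNIP3. C1qa, above background on 4 of 5 arrays of each group, did not pass (limma adjusted p = 0.89). Cd14 and Cd68 were the markers above background on every array of a group, and Ptprc, Csf1r and Adgre1 were at background on all 10. The summed level of 8 mast cell markers was 160 to 212 in ShCtrl and 176 to 210 in ShBNIP3, and that of 9 endothelial markers 192 to 224 and 210 to 233, with all of them at background. The 11 fibroblast markers had 1 up and 5 down. The part of other cell types in the results above was not tested, and in bulk RNA fewer cells of a type and less RNA per cell cannot be told apart.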

How the data were processed

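RNA of 10 samples was hybridised to rat GeneChip arrays with WT Plus labelling. Per the labels, the authors normalized the arrays with sst-rma, and each deposited number is the log2 expression value of a probeset on an array. The Transcriptome Analysis Console is named in the submitters' processing notes. Genome build and software version are not given in the sources used here. Array medians were 6.18 to 6.22, and no further normalization was applied. Of 24834 probesets, 1646 controls were left out, which leaves 23188, of which 15049 carry 1 gene symbol. The number of arrays limits the precision.

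Groups were compared with limma 3.58.1 (lmFit and eBayes, R 4.3.3) over all 23188 probesets, ShBNIP3 minus ShCtrl, with Benjamini-Hochberg adjustment. The script was tested on simulated data. The members, gene lists and alternatives were chosen with earlier results of these data known. Genes named by rule beside the 9 are the 4 largest called differences of each list and the fixed counterparts of the 9. Pla2g7, Plaa, Pla2r1, Tia1, some acyltransferases and cell type markers were named in addition, after their values were seen. So were Fads2, Mgll, Crem, Jun and the Acsl genes other than Acsl4. A gene most like another is 1 of the 3 highest Pearson correlations after group means were subtracted. Alternatives were each array left out, arrays 4 and 10 left out, 2 normalizations, a trended and robust variance, array weights, 2 filters on dim probesets, averaging of probesets, group medians and a 2-fold threshold.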

Additional observations from a re-analysis of the deposited data

Results flagged for a closer look

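Among the log2 values of 48 genes, the lowest and highest array of each group of 5 was compared with the rest, and a gap that is large for the range of the group (Dixon's test at 95%) was found in 12 of 96 groups, where chance gives about 4.8. Of the 12, 11 were on array 4 or array 10. On ShCtrl array 4, Ptgs2 (16.90, others 13.58 to 13.75), Ptges (10.95, others 6.04 to 6.64), Ptger4 (6.81, others 5.12 to 5.36) and Slco2a1 (8.65, others 5.65 to 5.95) were high. On the same array Hpgd (7.46, others 9.79 to 10.45), Anxa1 (16.27, others 16.99 to 17.22), Cyp2j4 (4.77, others 6.67 to 7.20) and Napepld (8.18, others 9.21 to 9.42) were low. On ShBNIP3 array 10, Pla2g2a (14.67, others 12.59 to 12.92) and Ptgfr (13.53, others 11.38 to 11.90) were high and Akr1c3 (3.78, others 4.38 to 4.62) was low, the last within the background range. On ShBNIP3 array 6, Pla2g10 (4.17, others 4.30 to 4.35) was low, also within the background range.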

How the results depend on the processing

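Of the alternatives run, the count of changed probesets (3590) and of changed marker genes of other cell types (9) stayed within 1.5 times under each except a 2-fold threshold, where they were 969 and 3. The 24 changed pathway genes became 9 with a 2-fold threshold, and between 15 and 29 with 1 array left out, the 15 without ShCtrl array 2. With 1 array left out, the probesets changed were 2746 to 3960 and the marker genes 7 to 9. The log2 differences of the 9 genes were recomputed 165 times and moved by less than 1 SD each time, although with 1 array left out the sign turned for Ptgs1 (-0.04, range -0.12 to 0.048) and Ptgis (0.06, range -0.033 to 0.16). The bound of 1 SD says little, because leaving out 1 of the 5 arrays of a group cannot move its mean by a whole SD. The variance setting and the filters on dim probesets do not alter a log2 difference, nor does averaging for genes with 1 probeset. An SD is also a wide measure where arrays 4 and 10 stand apart, as for Ptges (SD 2.06 in ShCtrl and 1.64 in ShBNIP3). With 1 array left out, the log2 difference ran from 0.11 to 1.73 for Ptges and from -1.19 to -0.38 for Hpgd. Of the values recomputed for the 38 pathway genes named by rule, 597 kept direction and side of the threshold, 42 lost the call and 17 gained it, and 2 reversed. Those 2 were of Pla2g5, which had no call: its log2 difference of -0.11 became 0.069 without ShBNIP3 array 7 and 0.016 without ShBNIP3 array 9, in a range of -0.40 to 0.069 with 1 array left out. The cause was not tested. No paired analysis was possible because the array numbers of the groups, 1 to 5 and 6 to 10, share none. With the trended and robust variance Cyp1b1, Cyp2j4 and Ptgr1 lost their calls, as Akr1c3 did with quantile normalization. Genes near background have differences that understate a change.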
